A study of Homo sapiens with 6 samples.

Results

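The genes described here encode the NF-kB subunits and their inhibitors. They are the 5 Rel subunits NFKB1, NFKB2, REL, RELA and RELB, the 3 IkB inhibitors NFKBIA, NFKBIB and NFKBIE, and 2 brakes that act through ubiquitin, TNFAIP3 and TRAF3. They were found by gene symbol, and all 10 were present both in the table of FPKM values, which covered 12075 genes, and in the deposited spike-in table, which covered 16444 genes. Total RNA was sequenced in 2 groups of KMS-27, a cell line from human multiple myeloma. The first was transfected with an siRNA against Che-1 (siChe-1, 3 libraries), the protein encoded by AATF, and the second with a control siRNA (siControl, 3 libraries). Both groups are the same line, the labels give no time after transfection, and they describe libraries made in triplicate without naming separate cultures, so p-values rest on a spread between libraries that may be only technical. The question was how silencing Che-1 changes the transcriptome of myeloma cells.

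NF-kB is a family of transcription factors that bind DNA as dimers of Rel subunits. In resting cells IkB proteins hold the dimers in the cytoplasm. In the canonical pathway the IKK complex marks IkB proteins for destruction and releases mainly RELA and REL bound to p50, the processed product of NFKB1. In the noncanonical pathway the kinase NIK, encoded by MAP3K14, drives the processing of the NFKB2 product to p52, which enters the nucleus with RELB. TRAF3 keeps NIK low, and TNFAIP3 (A20) removes or edits ubiquitin chains upstream of IKK. Plasma cells and myeloma cells use both branches, and loss of TRAF3 is a well known way in which myeloma activates the pathway. Several inhibitors are themselves NF-kB target genes, so the pathway restrains itself.

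The promoters of these genes were searched for the motif that NF-kB binds. RefSeq promoter sequence (GRCh38.p14, 250 bases before to 50 bases after a transcription start) was given for 8 of the 10 genes, with 13 promoters in all; RELB and NFKBIE are named only. The kB consensus, a motif of 10 bases that reads 3 G, a purine, any base, A or T, 2 pyrimidines and 2 C, was searched on both strands. It was found in 8 of these 13 promoters and in 7 of the 8 genes, against 5.91% of all 35116 promoters in the table. The share was 7.09% of all 27305 genes, and 8.74% of the 7662 genes that had a mean of at least 1 FPKM here. A match is a description of the letters in the window and not evidence of binding, and the 2 RELA promoters held none. The 110 bases before the start are shown for each promoter with a match in that stretch, because they carry the matches nearest to the start. Each reads 5′ to 3′ on the gene's strand, with matches on either strand in capitals and overlapping matches joined.
REL, chr2:60881464-60881573, plus strand: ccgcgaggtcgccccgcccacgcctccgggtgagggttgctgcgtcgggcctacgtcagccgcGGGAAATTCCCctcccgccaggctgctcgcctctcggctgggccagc
NFKB1, chr4:102501249-102501358, plus strand: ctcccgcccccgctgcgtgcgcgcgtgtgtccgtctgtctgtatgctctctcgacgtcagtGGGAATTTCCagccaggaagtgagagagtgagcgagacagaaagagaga
TNFAIP3, chr6:137867149-137867258, plus strand: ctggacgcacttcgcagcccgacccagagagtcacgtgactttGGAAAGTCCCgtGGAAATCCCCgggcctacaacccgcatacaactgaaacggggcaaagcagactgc
NFKB2, upstream start, chr10:102394468-102394577, plus strand: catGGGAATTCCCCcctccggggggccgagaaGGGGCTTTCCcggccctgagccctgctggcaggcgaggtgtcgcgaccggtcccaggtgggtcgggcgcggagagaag
NFKB2, downstream start, chr10:102395595-102395704, plus strand: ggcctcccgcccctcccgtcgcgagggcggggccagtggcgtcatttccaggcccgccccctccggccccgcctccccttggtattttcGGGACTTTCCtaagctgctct
NFKBIA, chr14:35404750-35404859, minus strand: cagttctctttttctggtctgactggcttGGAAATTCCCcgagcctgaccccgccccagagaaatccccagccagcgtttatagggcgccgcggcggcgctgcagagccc
TRAF3, chr14:102777339-102777448, plus strand: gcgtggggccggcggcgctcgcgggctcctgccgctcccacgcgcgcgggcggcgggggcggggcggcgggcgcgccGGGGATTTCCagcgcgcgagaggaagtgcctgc
NFKBIB, chr19:38899859-38899968, plus strand: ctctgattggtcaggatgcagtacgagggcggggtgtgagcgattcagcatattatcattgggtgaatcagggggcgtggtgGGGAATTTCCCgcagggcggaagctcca

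Relative to other genes, the genes with a match did not share a direction in the measurements that follow. NFKB1, with a match that begins 49 bases before its start, fell relative to other genes. TNFAIP3, with matches that begin 67 and 55 bases before its start, rose. NFKBIA, TRAF3 and NFKBIB, whose matches begin 81, 33 and 28 bases before the start, did not pass relative to other genes. NFKB2 and REL did not pass on FPKM either, and NFKB2 rose on reads scaled relative to other genes. Per spike-in read, all genes described here had lower means in siChe-1 cells, with a match or without.

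The knockdown was read first, in AATF itself. AATF had 14.9, 14.8 and 17.2 FPKM in siChe-1 libraries, against 93.9, 88.8 and 112 FPKM in siControl libraries, and no siChe-1 library came near a siControl library. The log2 change of FPKM was -2.57 ± 0.11 (SE, n = 3 per group; adjusted p = 0.000117, limma). Each library held 92 synthetic spike-in RNAs, which received 379232 to 1041244 reads in siChe-1 libraries and 351573 to 519573 reads in siControl libraries. For every spike-in read there were 22.9 and 19.4 gene reads in siChe-1 libraries 1 and 2, against 38.8, 56.7 and 57.9 in siControl libraries, so a gene with the same share of reads in all 5 libraries is lower in siChe-1 cells on the spike-in scale. The siChe-1 library 3, which does not enter the spike-in table, had 379232 spike-in reads, near the 351573 and 376170 of siControl libraries 2 and 3, and fewer than the 835414 and 1041244 of siChe-1 libraries 1 and 2. The cells had the markers of their label: 9 of 9 plasma cell genes had reads, with a summed 9074 to 12746 FPKM in siChe-1 libraries and 7328 to 10394 FPKM in siControl libraries. Summed group means of the spike-in table for the plasma cell list were 206221 normalized reads in siChe-1 cells and 446200 in siControl cells. For each of the T or NK cell, myeloid, erythroid and stromal lists they were at most 34.0 in siChe-1 cells and 71.4 in siControl cells. Of these lists 3 of 6, 4 of 6, 2 of 4 and 2 of 4 genes were in that table, and NKG7 was at 0.

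Relative to other genes, NFKB1 fell and TNFAIP3 rose, while RELA, NFKBIA, NFKBIB, NFKB2 and TRAF3 did not pass the test. FPKM divides the fragments of a transcript by its length and by the library size; the listed transcripts of a gene were summed and the 6 libraries were rescaled to each other by the median of ratios. The table lists 3 FPKM values per group without a replicate number, so they are given in the order of the list. Genes with a mean of at least 10 FPKM were tested with limma on log2(FPKM + 1), which understates the change of low genes, and a gene passed at a Benjamini-Hochberg adjusted p under 0.05. Of the 10 genes, 7 reached that mean; 1 of these rose and 1 fell, where 30.2% of all 6285 genes tested passed, 15.1% as higher and 15.1% as lower. The median log2 change of the 7 genes was 0.08, against 0.00 over all genes tested. REL, RELB and NFKBIE lay below the mean of 10 and were tested in a second fit with a mean of at least 1 FPKM. There 2 of the 10 genes were higher and 1 was lower, where 27.2% of 10778 genes passed, 13.4% as higher and 13.8% as lower. The median was 0.16, against 0.00 over all genes. This wider fit rescaled the libraries over its own genes, while the FPKM values shown are rescaled over genes with a mean of at least 10. With that second scaling the wider fit gave 0.20 for RELB, 0.63 for NFKBIE and -0.46 for NFKB1, in place of 0.14, 0.58 and -0.51. The median over all genes was then 0.06. In these bulk RNA samples fewer cells, less RNA per cell and unequal addition of spike-ins cannot be told apart on the spike-in scale used below.

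**Figure D1:**
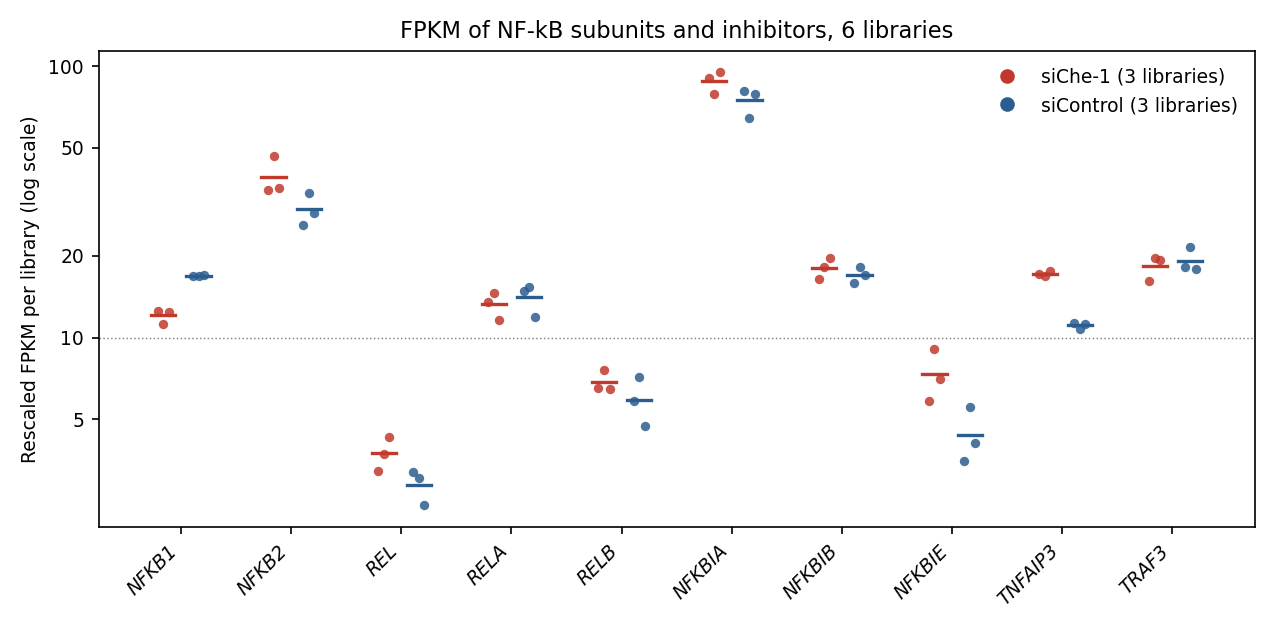
FPKM of the 10 genes after rescaling, on a log axis, with each point a library and each bar the mean of 3 siChe-1 or 3 siControl libraries; the dotted line marks a mean of 10 FPKM. NFKB1 lies lower and TNFAIP3 higher in all 3 siChe-1 libraries than in all 3 siControl libraries, while NFKBIA is the most abundant in both groups at 88.0 and 74.9 FPKM.

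Among the Rel subunits, NFKB1 had the only fall. NFKB1 (hg19 chr4:103422486-103538459, plus strand), the precursor of p50, had 12.6, 11.2 and 12.4 FPKM in siChe-1 libraries, against 16.9, 16.9 and 17.1 FPKM in siControl libraries. Every siChe-1 library lay below every siControl library, and the siControl libraries nearly coincided. The means were 12.1 ± 0.723 FPKM in siChe-1 cells and 16.9 ± 0.112 FPKM in siControl cells (SD, n = 3 each). The log2 change was -0.46 ± 0.08 (SE; adjusted p = 0.00600, limma). In the wider fit it was -0.51, and 7.23% of genes had a lower one.

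NFKB2 (hg19 chr10:104154229-104162281, plus strand), the precursor of p52, lay on the other side. It had 35.0, 46.5 and 35.7 FPKM in siChe-1 libraries, against 26.0, 34.2 and 28.9 FPKM in siControl libraries. The groups did not overlap, but the lowest siChe-1 library and the highest siControl library were close. The log2 change was 0.38 ± 0.14 (SE; adjusted p = 0.0752, limma) and missed the threshold. Without the siControl library at list position 2 it passed, with an adjusted p of 0.0323.

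The 3 subunits that carry a transactivation domain did not pass on this scale. RELA (hg19 chr11:65421067-65430443, minus strand), the main partner of p50, had 13.5, 14.7 and 11.6 FPKM in siChe-1 libraries, against 14.9, 15.4 and 12.0 FPKM in siControl libraries, and the groups overlapped throughout. Its log2 change was -0.08 ± 0.13 (SE; adjusted p = 0.669, limma). REL (hg19 chr2:61108752-61150178, plus strand), prominent in lymphoid cells, had 3.22, 3.73 and 4.31 FPKM in siChe-1 libraries, against 3.19, 3.03 and 2.41 FPKM in siControl libraries. These groups did not overlap, by a narrow gap, and the log2 change of 0.24 ± 0.12 in the wider fit had an adjusted p of 0.176 (limma). RELB (hg19 chr19:45504707-45541456, plus strand), the partner of p52, had 6.50, 7.61 and 6.50 FPKM in siChe-1 libraries, against 5.87, 7.14 and 4.74 FPKM in siControl libraries. Its groups overlapped, with a log2 change of 0.14 ± 0.13 in the wider fit (SE; adjusted p = 0.439, limma).

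Among the IkB inhibitors NFKBIE passed on FPKM in the wider fit, and its mean was too low for the fit at 10 FPKM. In a fit of single transcripts its only listed transcript did not pass (adjusted p = 0.104, limma). NFKBIE (hg19 chr6:44225903-44233525, minus strand) encodes IkB epsilon and had 5.84, 9.11 and 7.07 FPKM in siChe-1 libraries, against 3.50, 5.53 and 4.09 FPKM in siControl libraries. All 3 siChe-1 values lay above the 3 siControl values, the lowest of them by little, and the means were 7.34 ± 1.65 FPKM in siChe-1 cells and 4.38 ± 1.05 FPKM in siControl cells (SD, n = 3 each). The log2 change was 0.58 ± 0.17 (SE; adjusted p = 0.0373, limma), and 95.2% of the genes of that fit had a lower one. It did not pass under 6 of 11 other settings, which include leaving out either the second or the third listed siChe-1 library and either the first or the third listed siControl library; its adjusted p ran between 0.0167 and 0.114 over these settings.

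NFKBIA (hg19 chr14:35870716-35873960, minus strand), which encodes IkB alpha, the inhibitor that is rapidly destroyed and resynthesised, had 90.2, 79.0 and 94.8 FPKM in siChe-1 libraries, against 81.1, 64.5 and 79.0 FPKM in siControl libraries. The groups overlapped at their edges, and the log2 change was 0.23 ± 0.12 (SE; adjusted p = 0.177, limma). NFKBIB (listed at hg19 chr19:39369195-39399534, plus strand), which encodes IkB beta, had 16.5, 18.2 and 19.6 FPKM in siChe-1 libraries, against 15.9, 18.1 and 17.0 FPKM in siControl libraries. These groups overlapped, with a log2 change of 0.08 ± 0.09 (SE; adjusted p = 0.523, limma). Its listed locus overlaps SIRT2 on the opposite strand, and this span may be wider than NFKBIB itself. The kit keeps strand, but whether counting used it is not stated in the labels or headers.

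Of the ubiquitin brakes, TNFAIP3 rose and TRAF3 did not pass. TNFAIP3 (hg19 chr6:138188581-138204449, plus strand) had 17.1, 16.8 and 17.5 FPKM in siChe-1 libraries, against 11.4, 10.7 and 11.2 FPKM in siControl libraries. The groups were far apart for their spread, at 17.2 ± 0.352 FPKM in siChe-1 cells and 11.1 ± 0.334 FPKM in siControl cells (SD, n = 3 each). The log2 change was 0.58 ± 0.08 (SE; adjusted p = 0.00207, limma). TRAF3 (hg19 chr14:103243816-103377837, plus strand) had 16.2, 19.6 and 19.3 FPKM in siChe-1 libraries, against 18.2, 21.6 and 17.8 FPKM in siControl libraries. These values overlapped, with a log2 change of -0.06 ± 0.11 (SE; adjusted p = 0.704, limma). In all, the groups did not overlap for 5 of the 10 genes, where 44.3% of the 10778 genes of the wider fit had groups that did not overlap.

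The same contrast was then taken on read counts of single libraries. The deposited spike-in table holds group means of reads divided by spike-in size factors, and whole reads could be recovered from it for all 10 genes in 5 libraries, siChe-1 1 and 2 and siControl 1 to 3; siChe-1 library 3 does not enter this table. Scaled relative to other genes by TMM, 3 of the 10 genes were higher and 1 was lower (edgeR quasi-likelihood test), where 28.8% of 12468 genes passed, 13.5% as higher and 15.3% as lower. NFKB1 fell by 0.56 ± 0.11 on the log2 scale (SE; adjusted p = 0.00267, edgeR). TNFAIP3 rose by 0.51 ± 0.11 (SE; adjusted p = 0.00428, edgeR), NFKBIE by 0.70 ± 0.17 (SE; adjusted p = 0.00846) and NFKB2 by 0.39 ± 0.11 (SE; adjusted p = 0.0185). NFKB1 passed with any library left out. Without siChe-1 library 1 only 2 genes passed, since NFKB2 and TNFAIP3 (adjusted p = 0.0534, edgeR) did not; NFKB2 also missed the threshold without siControl library 1 or 3, and NFKBIE without siChe-1 library 2. The other 6 genes had log2 changes between -0.10 for TRAF3 and 0.25 for RELB.

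**Figure D2:**
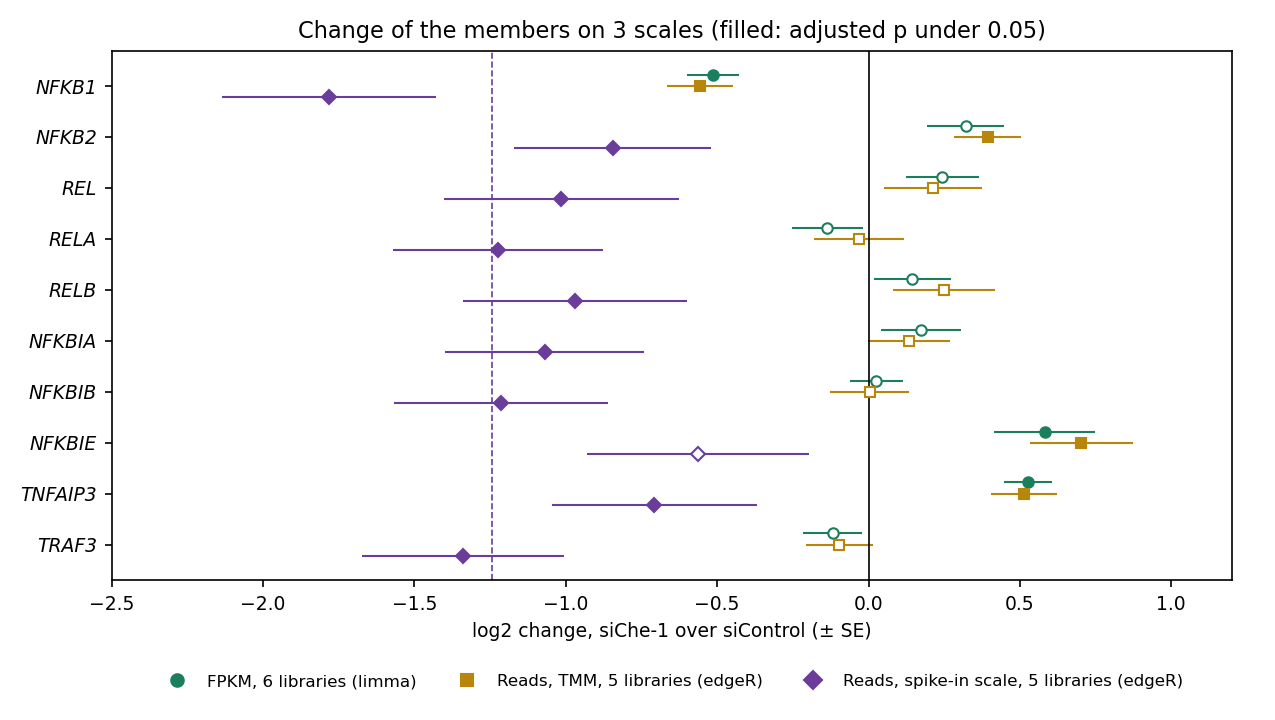
Log2 change of each gene, siChe-1 over siControl, with bars of 1 SE, from FPKM of 6 libraries in the wider fit and from reads of 5 libraries scaled by TMM or by spike-ins; filled symbols passed an adjusted p of 0.05, and the dashed line is the median of all genes on the spike-in scale, -1.24. Relative to other genes NFKB1 lies at -0.51 on FPKM and -0.56 on reads, and on the spike-in scale all 10 genes lie below 0.

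Per spike-in read, all 10 genes had lower means in siChe-1 cells than in siControl cells. On this scale a change sets the reads of a gene against added RNA of known amount rather than against other genes. Of the 10 genes, 6 had an adjusted p under 0.05 in the authors' deposited table, all lower, where 63.6% of 12591 genes with a mean of at least 10 normalized reads passed, 63.5% as lower and 0.0635% as higher. In a fit of the recovered reads (edgeR with spike-in size factors) 9 of the 10 genes were lower, where 84.5% of 12468 genes passed, 84.3% as lower and 0.192% as higher. The median log2 change of the 10 genes was -1.04, against -1.24 over all genes tested. The genes of a library share the error of its spike-in factor, which a p-value for each gene does not hold. The count moved with single libraries, as did the count over all genes. It was 5 without siControl library 2, where 8336 of 12351 genes passed. Without siControl library 3 it was 6, where 8144 of 12399 genes passed. Without siControl library 1 it was 10, where 11664 of 12505 genes passed. Without siChe-1 library 1 or 2, only 1 is left in that group. The median log2 change over all genes was then -1.38 (without library 1) or -1.12 (without library 2). The groups did not overlap for 9 of the 10 genes, where 89.9% of all genes had groups that did not overlap.

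**Figure D3:**
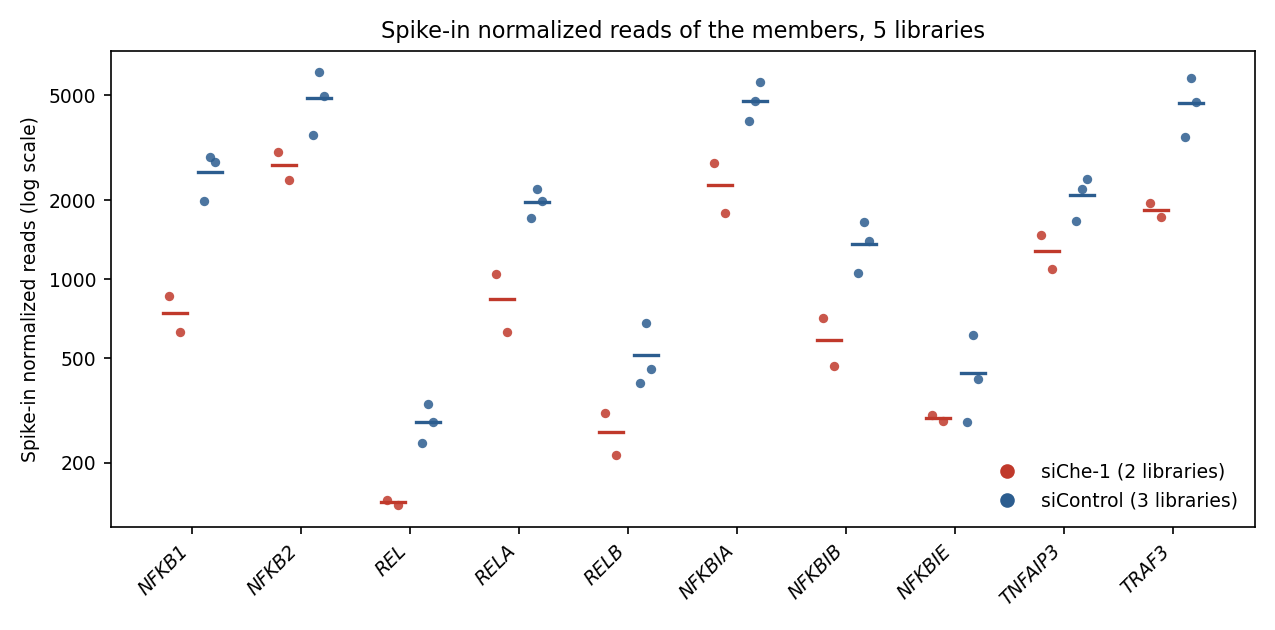
Reads of the 10 genes divided by spike-in size factors, on a log axis, with each point a library and each bar the mean of 2 siChe-1 or 3 siControl libraries. In 9 genes both siChe-1 libraries lie below all siControl libraries; in NFKBIE, at 304 and 290 normalized reads in siChe-1 libraries, the groups overlap.

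NFKB1 again had the deepest change of the 10. It had 862 and 629 normalized reads in siChe-1 libraries, against 1975, 2921 and 2800 in siControl libraries, so that its siChe-1 mean was 29.1% of its siControl mean. In the authors' deposited table its log2 change was -1.78 with an adjusted p of 0.000404, and 9.88% of genes had a lower one. The fit of recovered reads gave -1.78 ± 0.35 (SE; adjusted p = 6.37e-06, edgeR). TRAF3 had 1951 and 1729 normalized reads in siChe-1 libraries, against 3466, 5807 and 4702 in siControl libraries, a log2 change of -1.34 in the authors' deposited table with an adjusted p of 0.00782. RELA, NFKBIB, NFKBIA and REL were also lower in the authors' deposited table, with log2 changes of -1.22, -1.21, -1.07 and -1.02 and adjusted p-values of 0.00755, 0.0102, 0.0173 and 0.0468. RELA and NFKBIB lay near the middle of all genes, with 52.6% and 53.5% of genes lower. NFKBIA and REL lay above the middle, with 67.0% and 71.6% of genes lower.

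NFKBIE, TNFAIP3, NFKB2 and RELB did not pass in the authors' deposited table. NFKBIE had 304 and 290 normalized reads in siChe-1 libraries, against 286, 614 and 418 in siControl libraries, and the range of siControl libraries enclosed both siChe-1 values. Its log2 change in the authors' deposited table was -0.57 with an adjusted p of 0.493, and 92.4% of genes had a lower one. TNFAIP3 had 1469 and 1095 normalized reads in siChe-1 libraries, against 1671, 2198 and 2414 in siControl libraries, and a siChe-1 mean of 61.2% of the siControl mean. Its log2 change in the authors' deposited table was -0.71 with an adjusted p of 0.130, and 88.4% of genes had a lower one. The fit of recovered reads passed it narrowly, at -0.71 ± 0.34 (SE; adjusted p = 0.0432, edgeR), and 6 of 8 other settings did not; over all 8 the adjusted p ran between 0.000309 and 0.483. NFKB2 had 3058 and 2374 normalized reads in siChe-1 libraries, against 3548, 6116 and 4978 in siControl libraries, and a log2 change of -0.85 with an adjusted p of 0.0911 in the authors' deposited table. RELB had 310 and 215 normalized reads in siChe-1 libraries, against 404, 682 and 457 in siControl libraries, and a log2 change of -0.97 with an adjusted p of 0.0773 there. The siChe-1 mean of TNFAIP3 was thus above the siControl mean relative to other genes and below it per spike-in read. The same held for NFKBIE, NFKB2, RELB, REL, NFKBIA and NFKBIB, so this is not particular to TNFAIP3. Over all genes the median log2 change was -0.01 on TMM-scaled reads and -1.24 on the spike-in scale.

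The listed transcripts show what the gene values were made of. The 10 genes had 18 transcripts, 5 genes with 1 and 5 with more. In a limma fit of single transcripts 2 of the 18 passed, where 9.77% of 15089 transcripts did, and 3 had a q under 0.05 in the authors' deposited table, where 18.3% of transcripts did. The transcript of NFKB1 with the larger fall was NM_003998, at 5.86, 5.27 and 7.22 FPKM in siChe-1 libraries, against 10.6, 10.1 and 8.63 FPKM in siControl libraries. Its log2 change was -0.60 ± 0.14 (SE; adjusted p = 0.0482, limma), and the authors' deposited table gives it a q of 0.00332. The other NFKB1 transcript, NM_001165412, averaged 5.62 ± 0.897 FPKM in siChe-1 cells and 7.28 ± 1.27 FPKM in siControl cells (SD, n = 3 each) and did not pass (log2 change -0.32, adjusted p = 0.254, limma). The difference between the 2 transcripts was not tested. The single transcripts of TNFAIP3 and NFKBIE both had a q of 0.000601 in the authors' deposited table, with log2 changes of 0.53 and 0.66. In the limma fit of transcripts that of TNFAIP3 passed (adjusted p = 0.0181) and that of NFKBIE did not (adjusted p = 0.104).

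NFKB2 was spread over 4 transcripts, and none passed. The most abundant, NM_001077493, had 24.0, 25.4 and 14.2 FPKM in siChe-1 libraries, against 11.6, 16.6 and 17.1 FPKM in siControl libraries, so the third listed siChe-1 library lay within the siControl values. The transcript NM_002502 had 0.00600, 1.66 and 8.80 FPKM in siChe-1 libraries, against 5.83, 4.08 and 0.172 FPKM in siControl libraries. The FPKM of this gene was thus divided differently among its transcripts from library to library. Of the 2 NFKBIB transcripts, the noncoding NR_040515 held more than the coding NM_002503, at means of 13.0 and 4.54 FPKM in siChe-1 cells and 12.2 and 4.91 FPKM in siControl cells. RELA and TRAF3 also had several transcripts, and none of those passed.

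**Figure D4:**
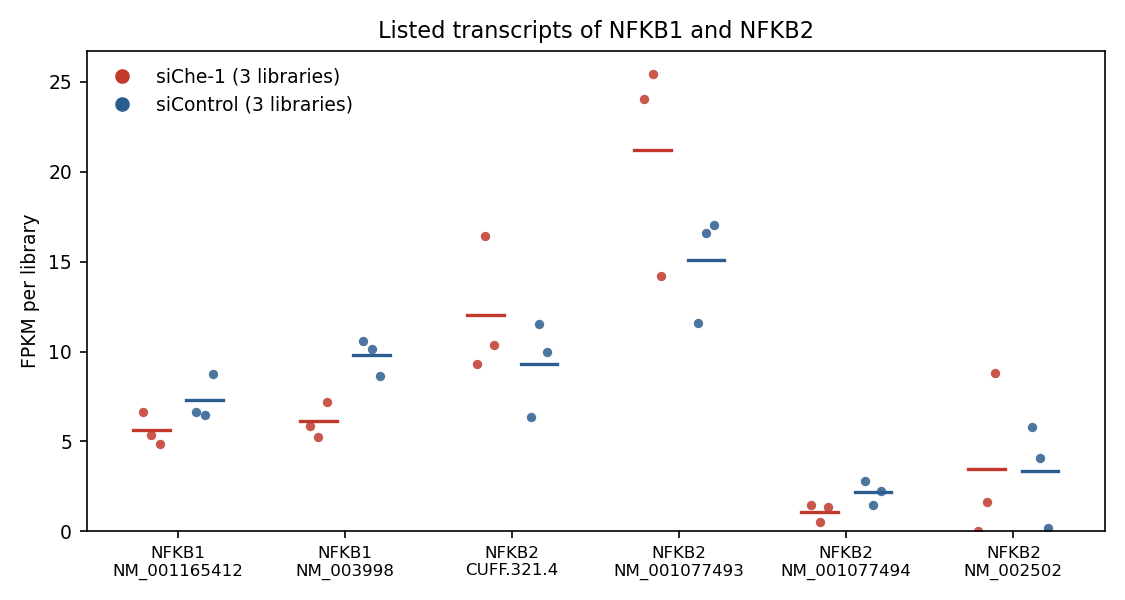
FPKM of the listed transcripts of NFKB1 and NFKB2, with each point a library and each bar the mean of 3 siChe-1 or 3 siControl libraries. The siChe-1 libraries of NM_003998, an NFKB1 transcript, all lie below the siControl libraries, while the transcripts of NFKB2 overlap or scatter widely.

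Because FPKM is per length, levels can be ordered between genes. Over the 6 libraries NFKBIA was the most abundant at 81.4 ± 10.5 FPKM (SD over both groups), above NFKB2 at 34.4 ± 7.07 FPKM in every library. NFKB2 in turn lay above TRAF3 at 18.8 FPKM in every library. TRAF3, NFKBIB at 17.6, NFKB1 at 14.5, TNFAIP3 at 14.1 and RELA at 13.7 FPKM followed, and no neighbours in this stretch kept their order in all 6 libraries. RELB at 6.39 FPKM lay below RELA in every library and was not separated from NFKBIE at 5.86 FPKM. REL was the lowest in every library, at 3.32 FPKM. The order of TNFAIP3 with NFKB1 and with RELA depended on the group. NFKB1 lay below TNFAIP3 in every siChe-1 library and above it in every siControl library. Likewise, in siChe-1 libraries TNFAIP3, at 16.8 to 17.5 FPKM, lay above RELA, at 11.6 to 14.7 FPKM, and in siControl libraries TNFAIP3, at 10.7 to 11.4 FPKM, lay below RELA, at 12.0 to 15.4 FPKM.

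Ratios within a library show how the balance of the genes differed, without a test. The summed FPKM of the 3 IkB genes over that of the 5 Rel subunits was 1.59, 1.27 and 1.72 in siChe-1 libraries, against 1.51, 1.15 and 1.54 in siControl libraries, and the groups overlapped. NFKBIA made up 77.5 ± 2.95% of the IkB sum in siChe-1 cells and 77.6 ± 3.95% in siControl cells (SD, n = 3 each). NFKBIA over RELA was 6.69, 5.39 and 8.17 in siChe-1 libraries, against 5.46, 4.19 and 6.60 in siControl libraries, and the groups overlapped. NFKB1 over RELA was 0.932, 0.767 and 1.07 in siChe-1 libraries, against 1.13, 1.10 and 1.43 in siControl libraries, apart by little. NFKB2 over NFKB1 was 2.79, 4.14 and 2.87 in siChe-1 libraries, against 1.54, 2.03 and 1.69 in siControl libraries, and the groups were apart. Of these precursors NFKB1 passed on FPKM and NFKB2 did not. TNFAIP3 over TRAF3 was 1.06, 0.858 and 0.908 in siChe-1 libraries, against 0.624, 0.498 and 0.630 in siControl libraries, and these were apart too. The genes whose log2(FPKM + 1) followed TNFAIP3 most closely over the 6 libraries, among 6284 others, were CPQ, SCAPER and BANK1, with Pearson's r of 0.999, 0.999 and 0.998. Their means were 16.3, 21.2 and 114 FPKM in siChe-1 cells and 5.58, 12.2 and 72.4 FPKM in siControl cells, a direction that choosing them by likeness to TNFAIP3 fixes.

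Other genes of the pathway were taken from 5 lists with 80 genes beyond the 10, of which 62 were listed and 34 reached a mean of 10 FPKM. Of these 34, 8 were higher and 4 were lower, a share of 35.3%, close to the 30.2% of all genes, with a median log2 change of 0.14. Among IKK subunits and upstream kinases 1 of 5 tested fell: CHUK, the catalytic subunit IKK alpha, had 29.2 ± 2.12 FPKM in siChe-1 cells and 37.1 ± 0.805 FPKM in siControl cells (SD, n = 3 each; log2 change -0.34, adjusted p = 0.0147, limma). TBK1, a related kinase and the most abundant of this list, had a log2 change of -0.04. Among adaptors and ubiquitin ligases 1 of 6 rose, MALT1, the protease that links antigen receptors to IKK, at 48.3 ± 0.630 FPKM in siChe-1 cells and 38.0 ± 1.38 FPKM in siControl cells (SD, n = 3 each; log2 change 0.34, adjusted p = 0.0108, limma). On TMM-scaled reads MALT1 did not pass (log2 change 0.21, adjusted p = 0.1595, edgeR). IRAK1, a kinase of the Toll-like receptor pathway, had a log2 change of -0.01. TNFRSF17, the plasma cell receptor BCMA, was the only receptor tested and did not pass (log2 change 0.25, adjusted p = 0.0543, limma).

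Of the other brakes, 2 of 10 tested rose, CYLD and NFKBIZ. CYLD, a deubiquitinase that removes the chains that activate IKK, had 44.9, 41.4 and 44.2 FPKM in siChe-1 libraries, against 23.2, 23.2 and 20.7 FPKM in siControl libraries. Its groups were far apart (log2 change 0.93 ± 0.08, SE; adjusted p = 0.000579, limma). NFKBIZ, an atypical nuclear IkB protein that also acts as a coactivator, had 15.5, 13.5 and 13.2 FPKM in siChe-1 libraries, against 8.70, 5.88 and 5.37 FPKM in siControl libraries, at means of 14.1 ± 1.25 FPKM in siChe-1 cells and 6.65 ± 1.80 FPKM in siControl cells (SD, n = 3 each; adjusted p = 0.00571, limma). TAX1BP1, an adaptor of A20 and the most abundant of this list, did not pass (log2 change 0.19, adjusted p = 0.319, limma).

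Genes commonly listed as NF-kB targets moved both ways: of 13 tested, 6 were higher and 3 were lower, where 15.1% of all genes passed in each direction, and the 6 include MALT1, which stands in both lists. CD74, the chaperone of MHC class II molecules, had 366 ± 27.9 FPKM in siChe-1 cells and 123 ± 8.77 FPKM in siControl cells (SD, n = 3 each; log2 change 1.56, adjusted p = 0.000359, limma). The transcription factor IRF1, the survival gene BCL2 and the chemokine CCL3 also rose, with log2 changes of 1.31, 0.97 and 0.96. MYC, a driver of growth, had 150 ± 9.88 FPKM in siChe-1 cells and 284 ± 16.6 FPKM in siControl cells (SD, n = 3 each; log2 change -0.92, adjusted p = 0.00109, limma). The mitochondrial superoxide dismutase SOD2 and the adhesion molecule ICAM1 fell as well, by 0.90 and 0.76 on the log2 scale. Many of these genes have other regulators, and the list gives no direction of pathway activity. On the spike-in scale no gene of the 5 lists was higher in the authors' deposited table, where 0.0635% of all genes were. There 7 of 11 kinases, 9 of 14 adaptors, 6 of 13 brakes, 2 of 5 receptors and 10 of 22 targets were lower. These shares lay near or below the 63.5% of all genes.

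**Figure D5:**
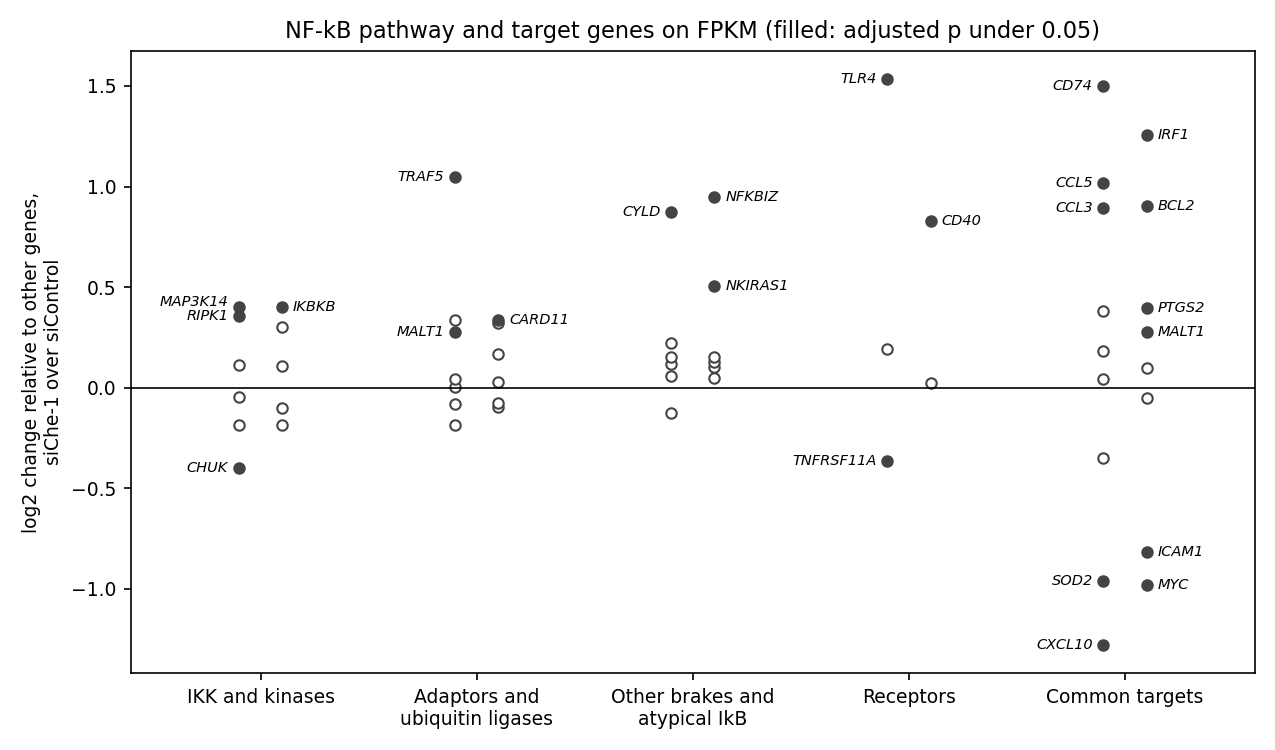
Log2 change of FPKM, siChe-1 over siControl, of the genes in 5 pathway lists that had a mean of at least 1 FPKM; each point is a gene, filled and named where the adjusted p was under 0.05. Targets lie on both sides of 0, with CD74 at 1.50 and CXCL10 at -1.28, and CHUK and TNFRSF11A are the named genes below 0 outside the targets.

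At a mean of at least 1 FPKM more receptors and kinases could be tested, and the genes named here were chosen after their values were seen. CD40, a receptor that feeds the noncanonical branch, had 3.06, 3.73 and 3.44 FPKM in siChe-1 libraries, against 0.994, 1.59 and 1.71 FPKM in siControl libraries (log2 change 0.83, adjusted p = 0.00504, limma). TLR4, the receptor for bacterial lipopolysaccharide, had 7.15, 6.84 and 7.33 FPKM in siChe-1 libraries, against 1.76, 1.70 and 1.66 FPKM in siControl libraries (log2 change 1.53, adjusted p = 0.000364, limma). Both were set apart from their siControl values in every library, and 2 of 5 receptors rose and 1 fell, TNFRSF11A (RANK), by 0.36. MAP3K14, which encodes NIK, averaged 4.88 ± 0.237 FPKM in siChe-1 cells and 3.30 ± 0.122 FPKM in siControl cells (SD, n = 3 each; log2 change 0.40, adjusted p = 0.0121, limma). IKBKB, the catalytic subunit IKK beta, averaged 10.2 ± 1.18 FPKM in siChe-1 cells and 7.18 ± 0.590 FPKM in siControl cells (SD, n = 3 each; log2 change 0.40, adjusted p = 0.0256, limma), while CHUK was lower in this fit too, at -0.40. In all, 3 of 11 kinases rose and 1 fell, 3 of 13 adaptors and 3 of 12 brakes rose, and 7 of 17 targets rose and 4 fell, where 27.2% of all genes passed.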

How the data were processed

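RNA of 3 siChe-1 and 3 siControl KMS-27 samples was analysed, grouped by sample title. Libraries were made from 500 ng of total RNA depleted of ribosomal RNA with a stranded kit, per the labels' protocols. The submitters' processing notes name the build hg19 and the tools TopHat, HTSeq, DESeq2, Cufflinks and Cuffdiff, without versions or roles. The deposited tables hold raw counts of 92 spike-ins in each of 6 libraries; FPKM of 18750 transcripts with the authors' log2 of the group ratio, p-value and q-value; and, for 16444 genes, a signal, the authors' group mean of reads over spike-in size factors, with the authors' ratio (fold change), log2 and p-values, per the file headers.

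FPKM of transcripts on assembled chromosomes was added up per gene (12075 genes), rescaled by the median of ratios and tested with limma 3.58.1 with a trend on log2(FPKM + 1); p-values are two-sided, adjusted over all genes tested. The depth behind FPKM is not given by that table. Whole reads of 5 libraries were recovered for 16321 genes, those whose deposited group means were met by whole numbers within a relative tolerance of 8e-15, and tested with edgeR 4.0.16 at a mean of at least 10 normalized reads. The 123 genes not recovered hold 18.8% of siChe-1 and 19.7% of siControl normalized reads. Recovered reads came to between 19169800 and 21780500 per library. The FPKM fit at a mean of 10 and the spike-in fit were tested on simulated data. For simulated log2 changes of 0.5 and 1.0, the FPKM fit recovered 34.5% and 93.0% of the changed genes. The spike-in fit recovered 0% and 30.3%. In both simulations only a small share of genes changed, and each gene varied on its own. In the data 30.2% of genes passed on FPKM and 84.5% on the spike-in scale, and genes of a library share its spike-in error. The simulated shares therefore do not give the share that these fits would find in the data. A gene that did not pass may still have changed.

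The 10 genes and all lists were chosen with earlier results of these data known. All 10 are named; from each pathway list the 4 genes per direction with the smallest p among those that passed, and the most abundant gene if it did not pass; and the 3 genes most correlated with the gene of smallest p. Alternatives were the pseudocount, minimum, scaling, transcript choice, limma trend, DESeq2 1.42.0, a replicate block and each library left out. The fits at a mean of 1 FPKM had their alternatives added after the data were seen.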

Additional observations from a re-analysis of the deposited data

How the results depend on the processing

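Relative to other genes, the fall of NFKB1 passed under all 13 alternatives of the FPKM fit that gave a value (log2 change -0.54 to -0.40) and the rise of TNFAIP3 under all 14 (0.50 to 0.64). Taking only the most abundant transcript left 1 gene passing in place of 2, since NFKB1 then fell below the minimum of 10 FPKM. With each library left out, 2 to 3 of the 10 genes passed on FPKM, where 984 to 1743 of all genes tested did. At a minimum of 1 FPKM 2 to 3 passed (3 with all libraries), where 1538 to 2666 of all genes did. With each siControl library left out, 3 to 4 passed on TMM-scaled reads (4 with all), where 2237 to 4139 of all genes did. On the spike-in scale 5 to 10 then passed (9 with all), where 8144 to 11664 of all genes did. The log2 difference in the IkB over Rel ratio, 0.13, ran from -0.01 to 0.26. No gene that passed changed direction in these alternatives; RELA, NFKBIA, NFKBIB and TRAF3, which did not pass relative to other genes, had values on both sides of 0. Labels share replicate numbers, but do not say that they pair samples, and with 2 pairs (correlations 0.188 and 0.208) the data cannot show it. These 2 correlations are not independent, since both rest on the difference between the same 2 siChe-1 libraries. In a fit with the replicate number as a block, siControl library 3 has no partner. With the replicate number as a block, 0 of the 10 genes passed on the spike-in scale, where over all genes 59 passed in place of 10532, and 4 of the 10 on TMM-scaled reads, where 3988 passed in place of 3585. Over all genes, scaling moved the split on FPKM: 949 higher and 948 lower became 592 and 1279 without rescaling, 634 and 1211 by the median of ratios over all genes, and 1221 and 713 by the upper quartile. With 1 library left out, counts over all genes were lowest at 984 on FPKM without the third listed siChe-1 library, against 1897, at 2050 on TMM-scaled reads without siChe-1 library 2, and at 2824 on the spike-in scale without siChe-1 library 2. A library alone in its group was assumed to vary like the other group. The cause of these shifts was not tested. The SEs of the 10 genes relative to other genes, 0.08 to 0.17 at a minimum of 1 FPKM, limit how small a log2 change could pass.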
